A study of Mus musculus with 8 samples.

Results

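The genes described here belong to the growth hormone, STAT5 and IGF pathway of the liver. They were taken by gene name from the table of all genes, and all 10 were found among its 21899 genes: Ghr, Igf1, Igfals, Igfbp1, Socs2, Cish, Stat5a, Stat5b, Bcl6 and Cux2. Each of the 10 passed the filter on low counts, which left 11380 genes for testing. Cux2 passed it through the wild-type libraries, 4 of which exceeded the filter's level against 2 of the deficient libraries, so its test is read together with its reads.

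Growth hormone is released by the pituitary and binds its receptor on hepatocytes, where the kinase JAK2 phosphorylates the transcription factors STAT5A and STAT5B. Active STAT5 switches on the gene of the circulating growth factor IGF1 and those of its own feedback inhibitors, CIS and SOCS2. In rodents the temporal pattern of growth hormone release differs between the sexes, and STAT5 together with the repressors BCL6 and CUX2 sets which liver genes are male-biased or female-biased. Inflammatory cytokines are known to blunt the hepatic response to growth hormone.

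Liver RNA was sequenced 8 h after ConA (concanavalin A, a lectin from beans used in mice to provoke hepatitis through T cells) in 4 libraries of P2X4R-deficient mice and 4 of wild-type mice. The sample labels name the first genotype as a P2X4R knockdown and the study title as a depletion, whereas the design text gives P2X4R-/-. P2X4R, the product of P2rx4, is a cation channel opened by extracellular ATP, and the comparison asks what its loss changes in the inflamed liver. All mice of both groups received ConA. Untreated livers were not analysed here, and no resting level stands beside these values. The labels give no strain, age or sex of the animals and no line or promoter behind the knockdown, and they do not state whether each library comes from its own animal. The p-values therefore measure only how these samples spread, which may be technical.

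P2rx4 was lower in every deficient library, with 286 to 516 reads against 692 to 906 in wild type, and its log2 fold change was -1.18 (SE 0.19, edgeR adjusted p = 0.00481). Libraries held 15445285 to 16604190 counted reads, and a count of 0 allows up to 3 reads, or 0.181 to 0.194 CPM (reads of a gene scaled to a common library size). Hepatocyte genes such as Alb made up a large part of the RNA, the 10 hepatocyte markers summing to 110624 to 142824 CPM in deficient and 137926 to 163493 CPM in wild-type libraries. Of the Y-linked genes, Ddx3y and Uty had 0 reads in every library, Kdm5d had 1 read and Eif2s3y 2 reads in deficient 1, and the latter 2 had 0 reads in the other 7 libraries. Levels are given below as CPM scaled by TMM (trimmed mean of M values, which adjusts for library composition), as mean ± SD over 4 libraries.

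Lower expression in the deficient livers was seen for most of these 10 genes. Of the 10 genes, 8 fell and 0 rose at an edgeR adjusted p under 0.05, whereas 10.6% of all genes tested fell and 9.27% rose. Those that fell were the receptor gene Ghr, Stat5a, Stat5b, Cish, Socs2, Igfals, Igfbp1 and Cux2, and those that did not pass were Igf1 and Bcl6. The same 8 genes had no overlap between the groups, against 12.3% of all genes tested with every deficient library lower. For each of them the exact two-sided permutation test over the libraries gave p = 0.0286, the smallest possible with 4 against 4. Cux2 entered the test through its wild-type level, so neither its lack of overlap nor its p counts as support. Leaving Cux2 aside, 7 of the other 9 genes fell, and the same 7 had no overlap. The median log2 fold change was -0.95 over the 10 genes and -0.00 over all genes tested. The 10 genes and the gene lists below were chosen with earlier results of these data known. Their shares beside those of all genes tested are therefore description and not independent support. In whole liver, fewer cells of a type and less RNA per cell cannot be told apart.

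**Figure D1:**
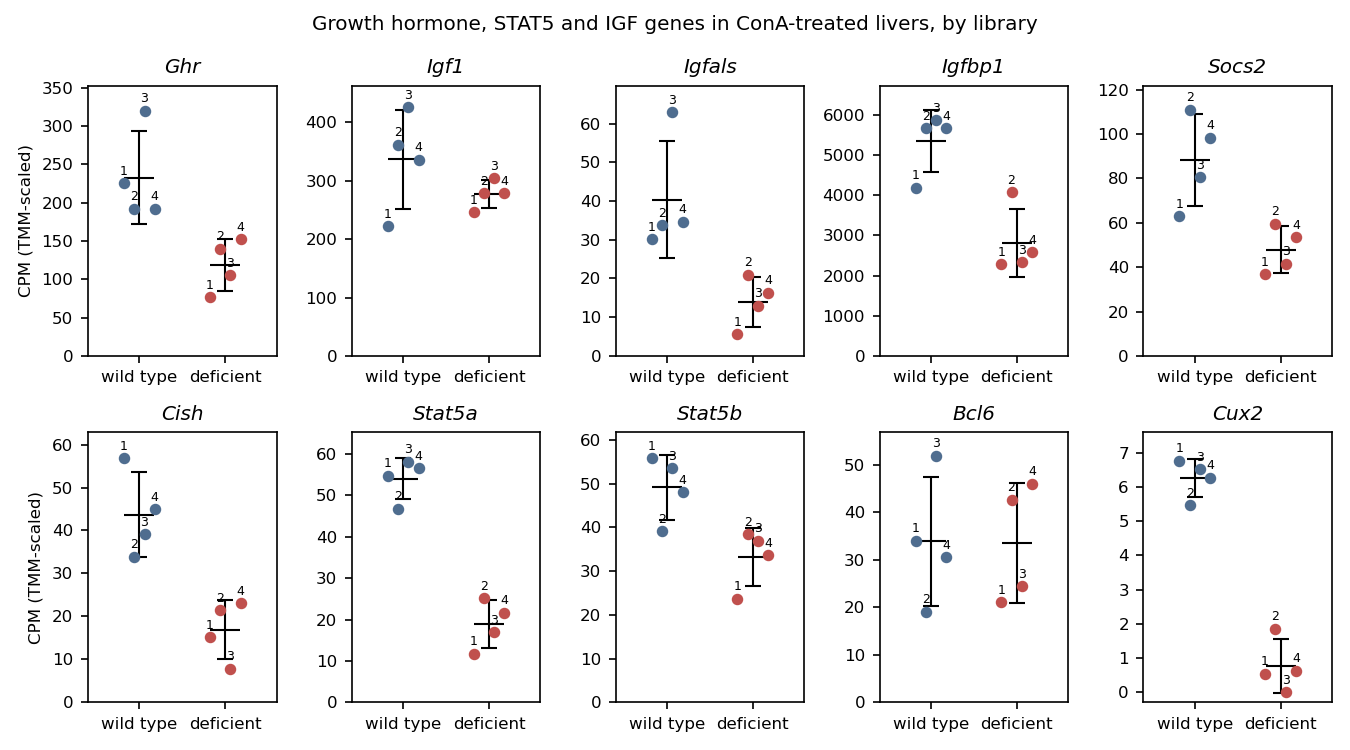
Levels of the 10 genes in CPM (linear axes) in wild-type (blue) and P2X4R-deficient (red) livers, 1 point per library numbered by replicate, with mean and SD. The groups are apart for all genes shown except Igf1 and Bcl6, and Cux2 lies between 0.00 and 1.86 CPM in deficient libraries against 5.48 to 6.77 in wild type.

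The receptor gene Ghr (ENSMUSG00000055737; chromosome 15, 3347242 to 3612974, minus strand, coordinates as the table lists them) was read at 77.0, 140, 105 and 152 CPM in deficient libraries 1 to 4. In wild-type libraries 1 to 4 it stood at 225, 192, 320 and 192 CPM. Every deficient library lay below every wild-type library, with wild type 3 well above its group. Ghr had a log2 fold change of -0.97 (SE 0.24, edgeR adjusted p = 0.0185), a drop to 51.0% of the wild-type level. Without wild type 3 it was at -0.78 and did not pass (adjusted p = 0.0614), nor did it without deficient 3 (-0.91, adjusted p = 0.0548).

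Both Stat5 genes fell, Stat5a with the larger estimate. Stat5a (ENSMUSG00000004043; chromosome 11, 100750177 to 100775995, plus strand) had 11.8, 25.2, 17.0 and 21.7 CPM in deficient libraries 1 to 4. Wild-type libraries 1 to 4 had 54.8, 46.8, 58.2 and 56.6 CPM. The wild-type values were tightly grouped and the highest deficient library stayed well below the lowest of them. Stat5a fell by 1.51 (SE 0.21, edgeR adjusted p = 0.00419), and its mean was 35.0% of that in wild type.

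Stat5b (ENSMUSG00000020919; chromosome 11, 100671557 to 100741550, minus strand), the form that carries most of the growth hormone signal in mouse liver, had the smaller estimate. Its deficient libraries 1 to 4 had 23.7, 38.5, 37.0 and 33.7 CPM. In wild-type libraries 1 to 4 it had 55.8, 39.2, 53.6 and 48.1 CPM. Deficient 2 and wild type 2 nearly met, and in the deposited FPKM (fragments scaled to gene length and library size) the groups overlapped, at 4.59 to 7.18 in deficient and 6.49 to 10.1 in wild type. Stat5b fell by 0.57 (SE 0.18, edgeR adjusted p = 0.0475), but this call was lost in 11 of 17 alternative settings, among them scaling by library size alone (-0.43, adjusted p = 0.111) and leaving out 6 of the 8 libraries singly (all but deficient 2 and wild type 2).

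The Stat5 genes are neighbours that point away from each other, 8626 bases apart in the table's coordinates, and they encode closely related proteins. Since the counting program is not given, reads that fit both may have been shared between them. The last 72 bases of Stat5a also overlap the end of Stat3 on the other strand. Stat3, which carries the signal of IL-6, averaged 668 ± 43.7 CPM in wild type and 556 ± 113 CPM in deficient livers (SD, n = 4), and did not pass (edgeR adjusted p = 0.298). On the log2 scale the ratio of Stat5a to Stat5b within a library was -1.01, -0.61, -1.12 and -0.63 in deficient libraries 1 to 4 and -0.03, 0.26, 0.12 and 0.23 in wild type. No deficient library reached the wild-type range of this ratio, which was chosen after the values were seen. The difference of -0.99 had an exact two-sided permutation p = 0.0286, and p = 0.0857 adjusted over the 6 ratios tested.

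The feedback inhibitors of the pathway were lower together. Cish (ENSMUSG00000032578; chromosome 9, 107173225 to 107179983, plus strand) encodes CIS, which competes with STAT5 for its docking sites on activated receptors. It had 15.2, 21.5, 7.87 and 23.1 CPM in deficient libraries 1 to 4. The wild-type libraries 1 to 4 had 56.8, 33.9, 39.2 and 44.9 CPM. All deficient libraries were below the wild-type range, with deficient 3 lowest. Cish fell by 1.37 (SE 0.29, edgeR adjusted p = 0.011), to 38.7% of wild type.

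Socs2 (ENSMUSG00000020027; chromosome 10, 95221224 to 95253042, minus strand) encodes an adaptor that promotes degradation of the growth hormone receptor. Its levels were 36.7, 59.6, 41.6 and 53.5 CPM in deficient libraries 1 to 4. They were 63.1, 111, 80.5 and 98.3 CPM in wild-type libraries 1 to 4. The groups were apart by a narrow margin, between deficient 2 and wild type 1. Socs2 fell by 0.88 (SE 0.21, edgeR adjusted p = 0.0165), to 54.2% of the wild-type level.

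Promoter sequence is shown for Cish and Bcl6 because they have a window with more than 1 match to the STAT motif TTCNNNGAA, and because Cish fell while Bcl6 did not pass. RefSeq promoter windows (build GRCm38.p6, 250 bases before to 50 after a start) were matched for 9 of the 10 genes, 16 windows in all. The motif, which reads the same on both strands, was found in 5 windows of 3 genes, Igfals, Cish and Bcl6. Of all 32851 windows of the mouse table, 8.30% hold a match and 0.457% hold 2 or more. In Cish both matches lie just past the start, from base 1 to 9 and from 12 to 20 counted from the start as 1. In the second Bcl6 window there are 3 matches. Igfals has 1 match in each of 2 windows. The stretches below, 5′ to 3′, have the matches in capitals. Cish is chr9:107296559-107296688 on the plus strand and Bcl6 is chr16:23981334-23981483 on the minus strand.
Cish: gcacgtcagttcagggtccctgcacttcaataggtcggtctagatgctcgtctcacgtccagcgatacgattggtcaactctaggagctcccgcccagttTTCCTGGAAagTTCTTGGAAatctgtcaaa
Bcl6: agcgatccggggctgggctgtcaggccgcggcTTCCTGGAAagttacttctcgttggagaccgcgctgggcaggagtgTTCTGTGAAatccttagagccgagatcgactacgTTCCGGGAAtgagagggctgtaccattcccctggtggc
The match TTCCTGGAA occurs in both stretches. A match describes these letters and is not evidence of binding, which was not measured.

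The repressors of the pathway, both sex-biased in mouse liver, were Cux2, which fell, and Bcl6, which did not pass. Cux2 (ENSMUSG00000042589; chromosome 5, 121994429 to 122188165, minus strand) encodes a factor found mainly in female mouse liver. It had 9, 30, 0 and 11 reads in deficient libraries 1 to 4. The wild-type libraries 1 to 4 held 107, 78, 99 and 98 reads. Deficient 3 had none, and even the highest deficient library was far below the lowest wild-type library. Summed over libraries this was 50 against 382 reads, a wild-type level 7.66 times the deficient one with a 95% counting interval (exact Clopper-Pearson) of 5.69 to 10.5. The fitted log2 fold change was -3.05 (SE 0.62, edgeR adjusted p = 0.00987), and it was -3.98 without deficient 2 and -4.08 with limma-voom. Since Cux2 entered the test through its wild-type level, the reads of each library and not the fitted p describe the difference.

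Cux2 lies 657 kb from P2rx4 on the same chromosome, in the table's coordinates. Of the 68 other tested genes within 2 Mb of P2rx4, Cux2 included, 13 rose and 8 fell, so that 30.9% differed against 19.9% of all genes tested. In the direction of Cux2 the share was 11.8%, against 10.6% of all genes tested. Cux2 had the most negative estimate among them, followed by Acad12 at -1.10. An effect of loss of the receptor and one of DNA carried along with the altered P2rx4 locus cannot be told apart for Cux2 in these groups.

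Bcl6 (ENSMUSG00000022508; chromosome 16, 23783802 to 23807602, minus strand), a repressor that is male-biased in liver and competes with STAT5 at shared sites, had 21.1, 42.6, 24.5 and 46.0 CPM in deficient libraries 1 to 4. Its levels in wild-type libraries 1 to 4 were 34.0, 19.1, 51.9 and 30.6 CPM. The libraries of both groups were spread over the same range. The estimate was -0.02 (SE 0.31, edgeR adjusted p = 0.978), and its sign depended on the setting, with 0.12 under scaling by library size alone and 0.26 without wild type 3. The SE leaves room for a change in either direction.

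Of the IGF genes, Igfals and Igfbp1 fell, while the hormone gene Igf1 did not pass. Igf1 (ENSMUSG00000020053; chromosome 10, 87694127 to 87772904, plus strand) had 246, 279, 305 and 279 CPM in deficient libraries 1 to 4. It had 222, 362, 426 and 336 CPM in wild-type libraries 1 to 4. Wild type 1 was below every deficient library, while the other wild-type libraries were above all of them. The estimate was -0.28 (SE 0.20, edgeR adjusted p = 0.337). Leaving out wild type 1 gave -0.45 (adjusted p = 0.0704), and Igf1 passed in 0 of 17 alternative settings.

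Igfals (ENSMUSG00000046070; chromosome 17, 25084971 to 25100984, plus strand) encodes the acid-labile subunit, a liver protein that holds IGF1 in a long-lived complex in blood. Deficient libraries 1 to 4 had 5.61, 21.0, 13.0 and 16.3 CPM. Wild-type libraries 1 to 4 had 30.2, 33.7, 62.9 and 34.7 CPM. All deficient values were lower, deficient 1 most of all, and wild type 3 stood above its group. Igfals fell by 1.53 (SE 0.35, edgeR adjusted p = 0.0139), to 34.6% of the wild-type level, and by 1.24 without wild type 3.

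Igfbp1 (ENSMUSG00000020429; chromosome 11, 7147782 to 7152546, plus strand) encodes a secreted protein that binds IGF1 and is known to be induced by fasting, cytokines and cell stress and repressed by insulin. It had 2285, 4081, 2338 and 2586 CPM in deficient libraries 1 to 4. The wild-type libraries 1 to 4 had 4188, 5674, 5879 and 5669 CPM. The groups almost touched, at deficient 2 and wild type 1, each of which stood apart from the rest of its group. Igfbp1 fell by 0.92 (SE 0.21, edgeR adjusted p = 0.0141), to 52.7% of wild type.

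The Igfbp1 promoter is shown because Igfbp1 was the only gene of those with a window that held the insulin response sequence CAAAACAA. This exact sequence was searched on both strands and is present in 2.51% of all windows. Other forms of it were not searched, so the stretch may hold more than is marked. The match runs from base -108 to -101 before the start and is in capitals in this stretch, 5′ to 3′, from GRCm38.p6 chr11:7197637-7197786 on the plus strand.
Igfbp1: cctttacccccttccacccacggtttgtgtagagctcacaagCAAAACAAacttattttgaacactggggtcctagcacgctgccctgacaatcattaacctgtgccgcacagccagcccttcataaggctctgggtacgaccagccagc

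**Figure D2:**
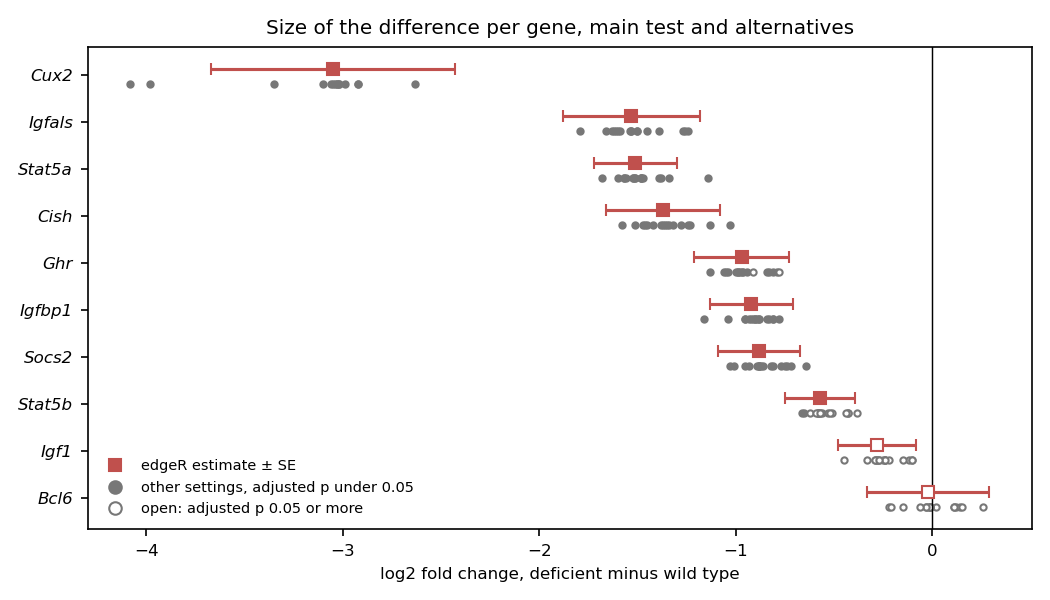
Log2 fold change (deficient minus wild type) of each gene, with the edgeR estimate and its SE (red squares) and the estimates under the alternative settings (grey points). Filled symbols have an adjusted p under 0.05. Igfals, Stat5a, Cish, Igfbp1 and Socs2 passed in each setting, and Bcl6 lies on both sides of 0. Cux2 passed where it was tested, but it entered the test through its wild-type level.

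Levels per gene length, as deposited FPKM, set Igfbp1 far above the other genes, at 3324 ± 392 FPKM in wild-type and 1933 ± 514 in deficient livers (SD, n = 4). Igf1 followed at 32.1 ± 7.18 in wild-type and 29.4 ± 2.77 FPKM in deficient livers. Ghr came next with 24.3 ± 6.01 and 13.7 ± 3.73 FPKM, and its wild-type range overlapped that of Igf1. Igfals, Socs2, Stat5b, Stat5a, Cish and Bcl6 had wild-type means between 4.81 and 12.1 FPKM, each overlapping its neighbour in that order. Cux2 was last, at 0.592 ± 0.0710 FPKM in wild-type and 0.0774 ± 0.0782 in deficient livers. In the order of deficient means Igfals stood at place 7 instead of 4, Bcl6 at 6 instead of 9, Stat5b at 4 instead of 6, Stat5a at 8 instead of 7 and Cish at 9 instead of 8. Igfbp1, Igf1, Ghr, Socs2 and Cux2 had the same place in both groups.

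The genes did not keep the same order of libraries, though some libraries recurred at the ends. Deficient 1 was lowest of its group for 8 of the 10 genes, and deficient 3 for Cish and Cux2. Wild type 3 was highest of its group for 6 genes, and wild type 2 was lowest for 5. Relative spread in wild type was smallest for Cux2, with an SD of 8.91% of the mean, and Stat5a, with 9.31%. It was largest for Bcl6, with 40.1%. The Cux2 value rests on only 78 to 107 reads per wild-type library, and among deficient libraries Cux2 varied most, at 104%. Igf1 varied least among deficient libraries, at 8.81%. Without deficient 1, 7 of the 8 genes that fell kept their call, and without wild type 3, 6 did.

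Ratios between genes of a library do not depend on library scaling, and none passed after adjustment over the 6 tested. With 4 against 4 libraries the smallest p is 0.0286, so that adjustment could be passed only if at least 4 of the 6 ratios reached it. Relative to the receptor, log2 Socs2 to Ghr was -1.29 ± 0.18 in deficient and -1.40 ± 0.60 in wild-type livers (SD, n = 4, exact permutation p = 0.743, adjusted p = 0.743). Log2 Cish to Ghr was -2.88 ± 0.60 and -2.40 ± 0.47 (SD, n = 4, exact permutation p = 0.286, adjusted p = 0.343). Log2 Igf1 to Ghr was 1.27 ± 0.40 in deficient and 0.53 ± 0.42 in wild type, a difference of 0.74 (exact permutation p = 0.0571, adjusted p = 0.0857), with deficient 4 inside the wild-type range. Log2 Igfbp1 to Igf1 was 3.31 ± 0.40 and 4.02 ± 0.19, lower by a difference of -0.71 (exact permutation p = 0.0571, adjusted p = 0.0857), with deficient 2 inside the wild-type range. Log2 Igfals to Igf1, chosen after its values were seen, was -4.46 ± 0.74 and -3.08 ± 0.31 with no overlap (exact permutation p = 0.0286, adjusted p = 0.0857).

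**Figure D3:**
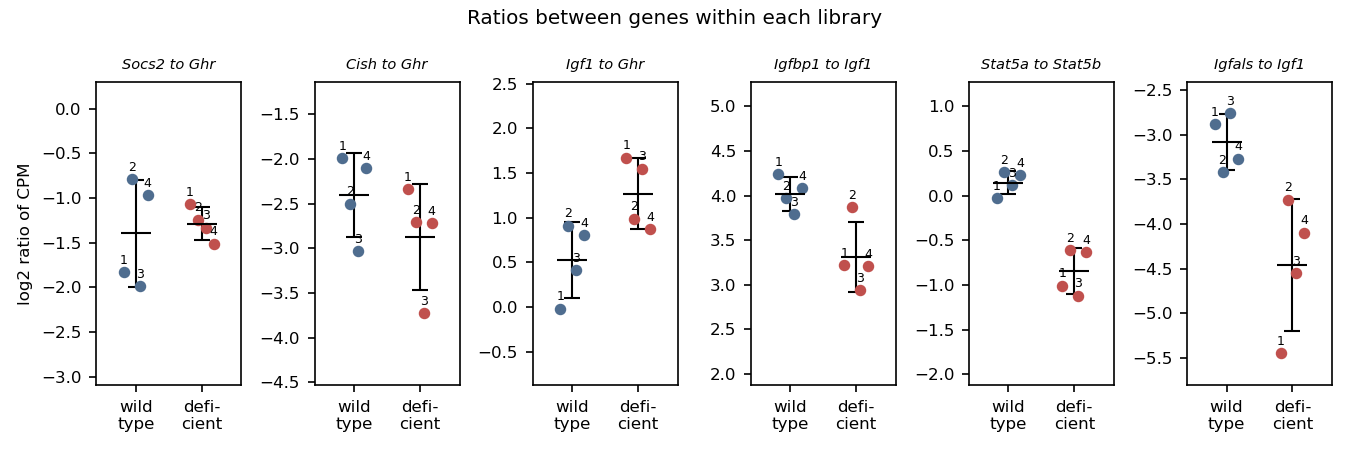
Log2 ratio of the CPM of gene pairs within each library, wild type (blue) and deficient (red), 1 point per library with mean and SD, each panel spanning the same height. The groups are apart for Stat5a to Stat5b and for Igfals to Igf1.

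Other genes of growth hormone receptor signalling, listed for their known roles, fell in part. Of 14 tested, 4 fell and 1 rose, with a median log2 fold change of -0.29. The 28.6% that fell compares with 10.6% of all genes tested, of which 9.27% rose. Jak2, the kinase bound to the receptor, had 21.2, 57.3, 22.4 and 40.5 CPM in deficient libraries 1 to 4. It had 93.6, 83.8, 101 and 93.8 CPM in wild-type libraries 1 to 4. The deficient libraries were scattered and all below the narrow wild-type range. Jak2 fell by 1.39 (SE 0.28, edgeR adjusted p = 0.0095) and passed in each of the 17 alternative settings.

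Socs3, the feedback inhibitor induced by IL-6 and other cytokines, averaged 615 ± 93.2 CPM in wild type and 209 ± 80.7 CPM in deficient livers (SD, n = 4). It fell by 1.55 (SE 0.25, edgeR adjusted p = 0.00481). Socs7, a further member of that family, fell by 0.91 (SE 0.21, adjusted p = 0.0139). Prlr, the prolactin receptor, which resembles the growth hormone receptor, fell by 0.88 (SE 0.26, adjusted p = 0.0343).

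The other genes of the IGF and insulin system mostly had estimates below 0 that did not pass. Of 13 tested out of 16, 2 fell and 0 rose, with a median of -0.64, and the 15.4% that fell is near the 10.6% of all genes tested. Grb14, an adaptor that inhibits the insulin receptor, fell by 1.04 (SE 0.21, edgeR adjusted p = 0.00949). Irs2, a docking protein of the insulin and IGF1 receptors, fell by 0.64 (SE 0.21, adjusted p = 0.0468), a call that was lost in 12 of 17 settings. Igfbp3, which joins IGF1 and the acid-labile subunit in the circulating complex, was at -0.73 (adjusted p = 0.0927). Igf2r, which clears IGF2, was at -0.45 (adjusted p = 0.115).

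Genes known to be female-biased in mouse liver were lower in many cases. Of 19 tested out of 20, 9 fell and 0 rose, with a median of -1.44, and the 47.4% that fell compares with 10.6% of all genes tested. Among the 9 were Cyp2a4, Cyp2b9, Cyp2b13, Cyp3a41a, Cyp3a41b, Acot3, Abcd2 and Nipal1, and 5 of the 9 kept their call without deficient 1, wild type 3 or wild type 4. Cyp2a4, a steroid hydroxylase, stood at 136, 118, 94.9 and 134 CPM in deficient libraries 1 to 4. It stood at 455, 542, 562 and 395 CPM in wild-type libraries 1 to 4. The groups were far apart, and Cyp2a4 fell by 2.02 (SE 0.18, edgeR adjusted p = 0.000955).

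Abcd2, a peroxisomal transporter of fatty acids, fell by 2.34 (SE 0.51, edgeR adjusted p = 0.0119), from 17.8 ± 6.11 to 3.50 ± 2.78 CPM (SD, n = 4). Acot3, a peroxisomal thioesterase, fell by 1.55 (SE 0.29, edgeR adjusted p = 0.00686). Cyp2b9, a cytochrome P450, fell by 1.44 (SE 0.27, edgeR adjusted p = 0.00756). Several of these P450 genes have near-identical copies, so the division of reads between them is uncertain. The summed level of the list was 669 to 1189 CPM in the deficient libraries and 1442 to 2479 CPM in those of wild type, without overlap. Without Cyp2a4 the sums overlapped, at 532 to 1072 against 987 to 1917 CPM.

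Male-biased genes mostly had estimates below 0 as well, but few passed. Of 12 tested out of 18, 2 fell and 0 rose, with a median of -0.63, and the 16.7% that fell is near the 10.6% of all genes tested. Mup20, a major urinary protein with close copies in the genome, fell by 1.40 (SE 0.24, edgeR adjusted p = 0.00591). Ugt2b1, a glucuronosyltransferase, fell by 0.91 (SE 0.24, adjusted p = 0.0241) with groups that overlapped, and leaving out deficient 3 or wild type 3 ended the call (adjusted p = 0.0652 and 0.079). Selenbp2, a selenium-binding protein, was at -1.48 (adjusted p = 0.063) and Mup3 at -0.63 (adjusted p = 0.0747). The summed level was 1520 to 2318 CPM in deficient and 2043 to 4071 CPM in wild-type libraries, with overlap. Whether the lists differ in their change was not tested.

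Lists that share Igfbp1's known regulators were examined beside it. Of 8 insulin and FOXO1 targets, 1 rose and 1 fell (12.5% each, near the 9.27% and 10.6% of all genes tested), with a median of 0.13. G6pc, the glucose-6-phosphatase of glucose release, had 55.8, 14.8, 25.9 and 24.4 CPM in deficient libraries 1 to 4 against 7.78, 19.5, 15.9 and 10.4 CPM in wild type. Deficient 1 stood out and the groups overlapped. G6pc rose by 1.17 (SE 0.38, edgeR adjusted p = 0.0482), and was at 0.70, not past the threshold, without deficient 1. Its call was lost in 9 of 17 alternative settings. Srebf1, the insulin-responsive regulator of lipid synthesis, fell from 129 ± 27.1 CPM in wild type to 64.4 ± 11.9 CPM in deficient livers (SD, n = 4, edgeR adjusted p = 0.00816). Ppargc1a, a coactivator of glucose production, was at 0.54 (adjusted p = 0.0705), and Pdk4, a kinase that spares glucose, at -0.68 (adjusted p = 0.293).

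Of 10 genes of the integrated stress response, 3 fell and 1 rose, with a median of 0.09. Of all genes tested 10.6% fell and 9.27% rose, so that 1 of 10 that rose is near the share of all genes. Gdf15, a stress-induced hormone, averaged 561 ± 103 CPM in wild type and 166 ± 89.5 CPM in deficient livers (SD, n = 4), and fell by 1.76 (SE 0.33, edgeR adjusted p = 0.00708). Atf3, a stress-induced transcription factor, fell by 1.38 (SE 0.45, adjusted p = 0.047), and Chac1, a glutathione-degrading enzyme, by 0.85 (SE 0.24, adjusted p = 0.0311). Sesn2, a sestrin, rose by 0.72 (SE 0.21, adjusted p = 0.0313). Of 17 alternative settings, the call was lost in 8 for Atf3, 6 for Chac1 and 5 for Sesn2, and in 0 for Gdf15.

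**Figure D4:**
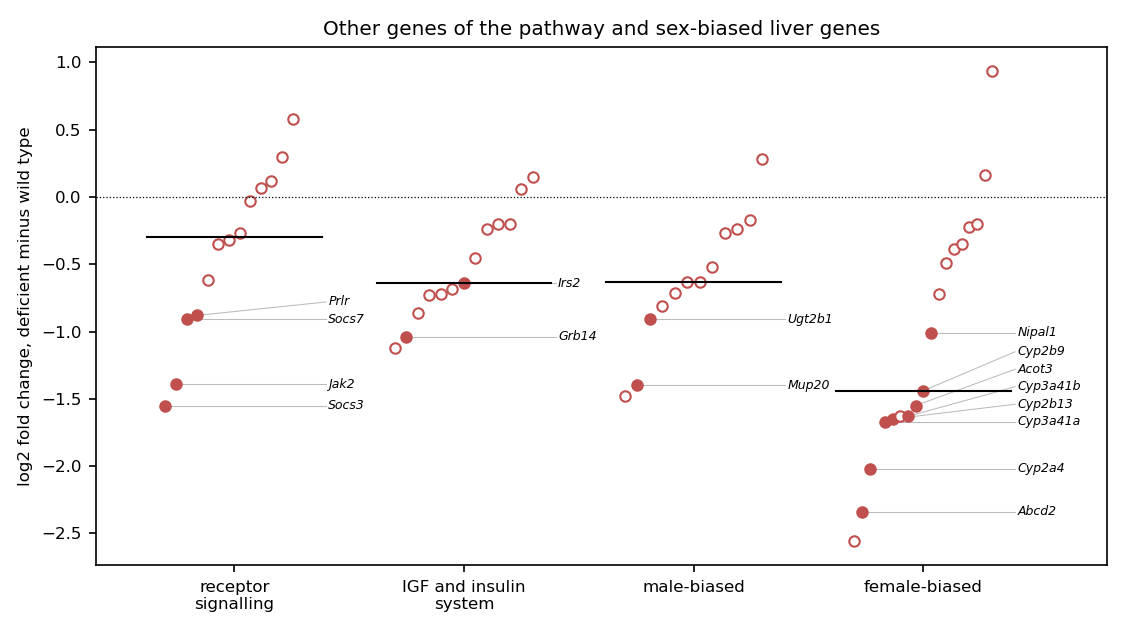
Log2 fold change (deficient minus wild type, edgeR) of each tested gene in the receptor signalling, IGF and sex-biased lists, 1 point per gene, with the list median as a line and genes past the threshold filled and named. Genes not reported here are left out of the points but count in the medians. In the receptor signalling list Jak2 and Socs3 lie below -1, and in the female-biased list the called genes Cyp2a4 and Abcd2 and the open point of Sult2a1 lie below -2.

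For each gene that fell, the pair of genes with the most similar pattern over the 8 libraries was found by the root mean square difference of mean-centred log2 CPM. Stat5a was nearest to Samd4, at 0.12, and to Socs3, at 0.14. Cish was nearest to Pex26 (0.16) and Ccnl1 (0.17), and Socs2 to Trim30d (0.12) and Nfyb (0.15). Ghr was matched by Cyp2j5 and Rmc1, both at 0.10. Igfals was nearest to Dhrs9 (0.11) and to Slc10a1 (0.20), the bile acid transporter of hepatocytes. Slc27a5 was among the pair nearest to Igfbp1, at 0.10, and Stat5b was nearest to Man2c1 and Cdc37, both at 0.07. Cux2 had no close match, its nearest gene being Gadd45a at 0.69. These distances describe the 8 libraries, which include the difference between the groups.

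Some markers of liver cell types differed between the groups. Of all genes tested 10.6% fell and 9.27% rose, and in lists of 5 to 10 markers 1 called gene is near those shares. Whether any marker list exceeded them was not tested. Of 10 hepatocyte markers 1 fell, Cps1 of the urea cycle, and 8 had estimates below 0. Their summed levels overlapped, but 4 of the 10 had every deficient library lower, against 12.3% of all genes tested. Among these 4 was Alb, at 55473 to 79131 CPM in deficient and 84759 to 96659 CPM in wild-type libraries (edgeR adjusted p = 0.0884). Kupffer cell markers summed to 42.1 to 60.3 CPM in deficient and 55.8 to 182 CPM in wild-type libraries, and 3 of 9 fell. Neutrophil markers summed to 77.8 to 154 CPM in deficient and 22.0 to 88.3 CPM in wild-type libraries, and 2 of 6 rose. Stellate cell markers summed to 84.1 to 171 against 137 to 215 CPM, and 2 of 7 fell. Cholangiocyte markers summed to 43.4 to 152 against 195 to 234 CPM, and 1 of 5 fell, Sox9. That gap rested on Sox9, since without it the sums overlapped, at 24.6 to 96.2 against 48.5 to 69.4 CPM. T and NK cell markers (29.3 to 41.7 against 29.3 to 58.0 CPM, 1 of 5 fell), endothelial markers (54.0 to 85.9 against 45.1 to 116 CPM, 1 of 7 fell) and B cell markers (0.664 to 2.24 against 0.264 to 4.81 CPM, 0 of 1 called) overlapped. The part of these cell types in the results for the 10 genes was not tested.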

How the data were processed

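Poly(A) RNA of mouse liver was sequenced in 8 libraries, 4 per genotype, all 8 h after ConA. The deposited table holds raw read counts per gene made by the authors, and FPKM values by the authors, which the counts and listed gene lengths gave back to within 7e-05%. HISAT2 2.0.5 and cutadapt are named in the submitters' processing notes. For the genome build, annotation, counting program and strand setting, the sources used here give nothing, so table coordinates are printed as listed and RefSeq coordinates are kept apart.

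Counts were tested with edgeR 4.0.16 in R 4.3.3 (TMM scaling, expression filter at 10 reads or 0.624 CPM, quasi-likelihood test by genotype, Benjamini-Hochberg adjustment over 11380 genes, threshold 0.05). The script was tested on simulated data. Alternatives used DESeq2 1.42.0, limma 3.58.1 with limma-voom, log2(FPKM + 1) and log2(FPKM + 0.1) at a minimum FPKM of 0.5 in 4 libraries, other scaling and filters, a replicate block and each library left out. Single ratios had exact permutation tests over 70 assignments. Counting intervals and the limit of 3 reads cover counting error only. No library pair agreed within sampling noise (chi-square per degree of freedom 21.5 to 109).

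The 10 genes, gene lists and tests were chosen with earlier results of these data known. Named genes were the 10 genes, P2rx4, up to 4 measured genes with the smallest p of each pathway list, the sex chromosome genes, defining cell markers and the 2 most similar genes. Other called list members (the rest of the female-biased genes, Cps1 and Sox9) and Sult2a1 were named after their values were seen, as was the choice of the ratios of Stat5a to Stat5b and Igfals to Igf1 and of the sums without Sox9 or Cyp2a4. Some genes that the lists or the naming rule include are not reported here by name, though they count in the totals.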

Additional observations from a re-analysis of the deposited data

Results flagged for a closer look

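In 7 of 82 groups of 4 libraries examined, 1 library stood apart from the other 3 by Dixon's criterion, which chance gives in about 1 of 20. Igfals was at 62.9 CPM in wild type 3 against 30.2 to 34.7 in the other wild-type libraries. Igfbp1 was at 4081 CPM in deficient 2 against 2285 to 2586 in the other deficient libraries, and at 4188 CPM in wild type 1 against 5669 to 5879. Chac1 was at 28.8 CPM in deficient 2 against 15.6 to 17.7, and at 51.0 CPM in wild type 2 against 28.8 to 31.1. Grb14 was at 33.2 CPM in wild type 3 against 17.9 to 19.7. Ppargc1a was at 7.72 CPM in wild type 1 against 5.26 to 5.67.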

How the results depend on the processing

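Igfals, Igfbp1, Socs2, Cish and Stat5a stayed past the threshold with the same direction in all 17 alternatives. Cux2 did so in the 15 that tested it, having entered the test through its wild-type level. Between 6 and 8 of the 10 genes fell in every alternative. Stat5b did not pass with library size alone, no expression filter (-0.53, adjusted p = 0.0645), limma on log2(FPKM + 1) (-0.38, adjusted p = 0.109) or log2(FPKM + 0.1) (-0.43, adjusted p = 0.133). Bcl6, never past the threshold, turned positive with library size alone (0.12), no filter (0.02), log2(FPKM + 1) (0.11), log2(FPKM + 0.1) (0.14) and without deficient 1 (0.15), deficient 3 (0.11) or wild type 3 (0.26), its range with a library left out being -0.22 to 0.26. Pdk4 ranged from -0.91 to 0.003, the latter without wild type 2. Genes past the threshold numbered 2264, and 982 to 2388 with a library left out (1482 without deficient 1, 1224 without deficient 3, 982 without wild type 3). Library size alone moved the median of all genes by 0.144, and 67.2% of calls were then higher against 46.6%, with 65.6% and 67.3% in the FPKM fits. The IGF list had 1 gene that fell with library size alone, no filter and both FPKM fits, and 1 to 3 with a library left out. Male-biased genes that fell numbered 4 with DESeq2, and 1 to 3 with a library left out. Female-biased genes that fell then numbered 5 to 9. Insulin and FOXO1 targets that rose numbered 2 with library size alone and both FPKM fits, 0 with robust estimation, limma-voom and the replicate block, and 0 to 1 with a library left out. Stress response genes that rose numbered 2 with DESeq2, log2(FPKM + 1) and the replicate block, and 0 to 1 with a library left out, where 1 to 4 fell. Replicate numbers did not pair the samples (correlations of same-numbered deviations 0.132, -0.114, 0.074 and -0.105). With the replicate block 1768 genes passed and Stat5b did not (-0.58, adjusted p = 0.0858). Only 4 libraries per group and low reads, as for Cux2, limit the precision. The cause of these shifts was not tested.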
